A study of Homo sapiens with 6 samples.

Results

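Notch signalling genes were described across 3 flow conditions in MDA-MB-231 cells of a bone-homing variant. MDA-MB-231 is a triple-negative breast carcinoma line of human origin. The 10 genes were taken by symbol from a table of 60591 genes. They encode the receptors NOTCH1, NOTCH2 and NOTCH3, the ligands JAG1, JAG2 and DLL1, and the target transcription factors HES1, HES4, HES7 and HEY1. All 10 were present and all passed the filter on low counts. The cells of the 3-dimensional loading model were kept without flow (static) or exposed to fluid flow at 1 mL/min (low flow) or at 15 mL/min (high flow), with 2 libraries per condition. The labels name no other agent, give no duration of flow, and give the same line and genotype for all 6 libraries, so the data stand for 1 cell line.

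Notch is a receptor that is activated by ligands on a neighbouring cell. Binding of a Jagged or Delta-like ligand leads to cleavage of the receptor, first by an ADAM protease and then by gamma-secretase, and the freed intracellular part joins the DNA-binding protein RBPJ and Mastermind coactivators to switch on target genes. The best known targets are the HES and HEY genes, which encode transcriptional repressors. In breast cancer that has spread to bone, JAG1 on tumour cells is known to engage Notch on bone cells.

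Library totals ran from 17822642 to 53279537 counts, with the 4 flow libraries at 43965176 or more and the static ones at 17822642 and 23544307. The column names place both high flow libraries in one sequencing lane and the other 4 libraries in another, so an effect of the lane and one of flow cannot be told apart in any comparison with high flow. The high flow columns also bear higher sample numbers and a different file suffix. What these stand for is not given, and it cannot be told apart from flow either. Static and low flow share a lane, but the static libraries are the shallowest, and the part of depth in the results was not tested. Nothing in the labels says that the libraries of a condition came from separate cultures, so the p-values rest on the spread between these libraries, which may be technical. The labels describe the cells as endothelial cancer cells. All 8 markers listed for MDA-MB-231 were detected (summed level 6712 to 8502 CPM, or counts scaled to a common library size). VIM, at 3618 to 5031 CPM, was the largest part of that sum, and SPARC was at 0.717 to 1.24 CPM. Of 8 endothelial markers CDH5, CLDN5 and EMCN were at or under 0.13 CPM, while TIE1 reached 44.2 and PECAM1 14.1 CPM. Of 5 blood markers CD68 was at 258 to 339 CPM and the others were at or under 0.17 CPM. The 6 markers of fibroblasts or bone stroma summed to 4.91 to 7.84 CPM. Of 6 luminal breast markers PGR had 0 counts, CDH1 and ESR1 were at or under 0.39 CPM, and KRT19 reached 70.4, GATA3 9.10 and EPCAM 4.26 CPM. The luminal list summed to 40.7 and 44.4 CPM in static, 46.9 and 65.6 in low flow and 81.8 and 61.0 in high flow cells. KRT19, at 27.5 and 31.5, 34.8 and 55.5, and 70.4 and 50.5 CPM in the same order, carried that rise. EPCAM was lower in every flow library than in both static ones, and the mean of GATA3 was lower under both flow rates. The part of the luminal list in the results was not tested.

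Under high flow NOTCH1, JAG1, JAG2 and HES1 were higher than in static cells, by 1.33-fold to 2.14-fold, and HES7 and HEY1 were lower. Under low flow HES7 was the one member that passed the test, and it was lower there as well. The targets did not move one way: HES1 rose 1.95-fold under high flow while HES7 fell to 2.29 ± 0.190 CPM, against 6.24 ± 0.0208 CPM in static cells (SD, n = 2 each). A gene was called with an adjusted p under 0.05 in the quasi-likelihood test of edgeR, fitted on all 20676 tested genes. No member was called between high and low flow in edgeR, and DESeq2 called NOTCH1 and HES1 higher. In RNA from bulk cells, fewer cells that express a gene and less of its RNA per cell cannot be told apart.

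**Figure D1:**
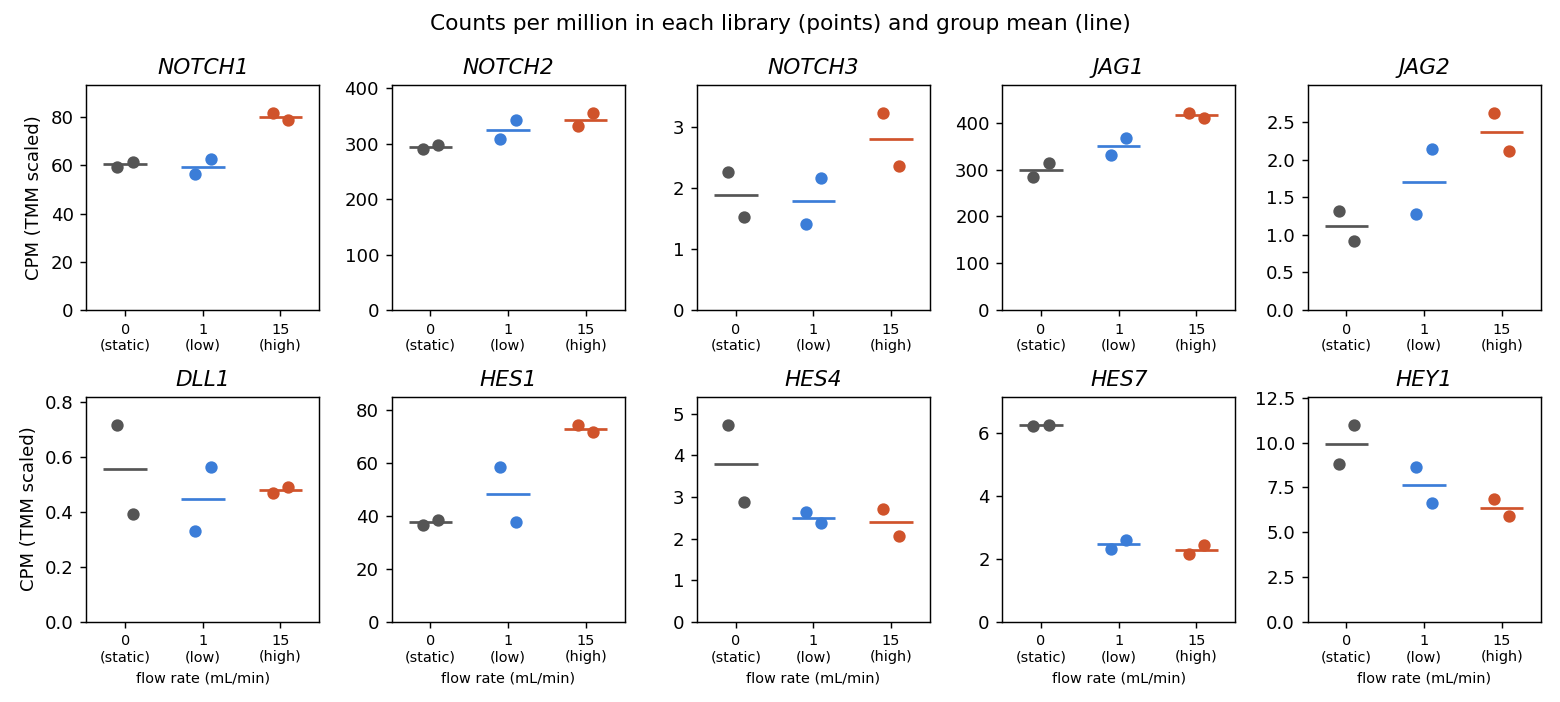
Level of each member in CPM (vertical axis, starting at 0) at flow rates of 0 (static), 1 (low) and 15 (high) mL/min; points are libraries and lines are the means of 2 libraries. HES7 lies between 2.15 and 2.60 CPM in the 4 flow libraries, against 6.23 and 6.26 CPM in static cells, while HES1 is at 74.5 and 71.6 CPM in the high flow libraries.

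Levels of different genes were compared per length, as CPM per kilobase of exon. JAG1 had the highest level of the 10, with means of 32.1 ± 2.30 in static, 37.6 ± 2.75 in low flow and 44.7 ± 0.785 in high flow cells (SD, n = 2 each). HES1 and NOTCH2 followed. Under high flow they were at 35.4 ± 1.01 and 20.5 ± 0.997 CPM per kilobase, while in static cells HES1, at 18.2 ± 0.672, and NOTCH2, at 17.5 ± 0.356, overlapped. NOTCH1 came next at 5.72 to 7.73, and HES4, HES7 and HEY1 stood between 3.07 and 3.40 in static cells, within the spread of HES4 there. NOTCH3, JAG2 and DLL1 were at 0.138 to 0.371 CPM per kilobase in all conditions. Of the per-length level of the 3 receptors, NOTCH2 made up 70.6% to 76.7% in every library, and of that of the 3 ligands JAG1 made up 98.6% to 99.2%. Of that of the 4 targets HES1 made up 63.2% and 66.7% in the static libraries, 81.9% and 76.7% under low flow and 86.4% and 87.5% under high flow.

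Among the receptors, NOTCH1 (chromosome 9, 136494433 to 136545786 on GRCh38, minus strand) was at 59.3 and 61.5 CPM in static, 56.2 and 62.5 in low flow and 81.7 and 78.8 in high flow cells. Both high flow libraries stood above the other 4, and the static and low flow libraries overlapped. Against static the log2 fold change was 0.41 under high flow (95% interval 0.20 to 0.61, adjusted p = 0.0107) and -0.03 under low flow (-0.23 to 0.18, adjusted p = 0.911). The direct comparison of high with low flow gave 0.43, with an adjusted p of 0.0659 in edgeR and 0.00995 in DESeq2. The call of NOTCH1 against static ended without static replicate 2 (adjusted p = 0.0729), high flow replicate 1 (0.129) or high flow replicate 2 (0.0627). It also ended with offsets for transcript length and GC content, with which the log2 fold change was 0.09 (adjusted p = 0.495).

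NOTCH2 (chromosome 1, 119911553 to 120069626, minus strand), the receptor with the highest level, was at 289.9 and 298 CPM in static, 308 and 343 in low flow and 332 and 356 in high flow cells. Every flow library was above both static libraries, and the flow rates overlapped. The log2 fold changes did not pass, at 0.22 for high flow against static (0.02 to 0.43, adjusted p = 0.134) and 0.15 for low flow against static (-0.06 to 0.35, adjusted p = 0.391). The near-identical genes NOTCH2NLA, NOTCH2NLB and NOTCH2NLC had counts that summed to 3.90% to 5.51% of those of NOTCH2, and reads of the 4 genes may have been split between them. NOTCH3 (chromosome 19, 15159038 to 15200981, minus strand) was at 2.26 and 1.52 CPM in static, 1.40 and 2.16 in low flow and 3.23 and 2.37 in high flow cells. Its high flow libraries did not overlap the other 4, but the log2 fold change of 0.58 against static did not pass (-0.03 to 1.18, adjusted p = 0.194).

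JAG1 was the ligand gene with nearly all of the ligand transcript. JAG1 (chromosome 20, 10637684 to 10673999, minus strand) was at 283 and 314 CPM in static, 332 and 368 in low flow and 421 and 410.3 in high flow cells. The 3 conditions did not overlap, and their order followed the flow rate. JAG1 rose under high flow by a log2 fold change of 0.48 against static (0.27 to 0.69, adjusted p = 0.00545), and the values for low flow against static, 0.23 (0.02 to 0.44, adjusted p = 0.175), and high against low flow, 0.25 (adjusted p = 0.425), did not pass. Without high flow replicate 1 the adjusted p of high flow against static was 0.0890, and it was under 0.05 without each of the other 5 libraries.

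JAG2 (chromosome 14, 105140981 to 105168824, minus strand) was at 1.32 and 0.913 CPM in static, 1.27 and 2.14 in low flow and 2.62 and 2.12 in high flow cells, from as few as 21 counts in a static library. Both high flow libraries were above the static ones, and the low flow libraries overlapped both conditions. JAG2 rose under high flow with the widest interval of the called members (log2 fold change 1.10, 0.43 to 1.76, adjusted p = 0.0283). The call ended without static replicate 2 (adjusted p = 0.276), high flow replicate 1 (0.215) or high flow replicate 2 (0.0740), and with the length and GC offsets (0.0998). JAG2 also shares 469 exonic bases with the processed transcript AL512356.1 on the same strand, so its counts are uncertain. DLL1 (chromosome 6, 170282206 to 170306565, minus strand), a Delta-like ligand, had between 9 and 27 counts per library, and at that depth no difference was detectable (log2 fold change -0.18 for high flow against static, -1.19 to 0.84, and -0.28 for low flow against static, -1.30 to 0.75).

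HES7, a target gene, had the largest fold change of the 10 genes against static. The promoter windows of HES1, HES4 and HES7 differ in how often they hold the exact letters searched for RBPJ, TGGGAA. HES1 was higher under high flow than in static cells. HES4 and HES7 both lay below static under both flow rates, though HES4 did not pass. The windows of HES1 (chr3:194135898-194136197, plus strand), HES4 (chr1:1000048-1000347, minus strand) and HES7 (chr17:8124057-8124356, minus strand) are shown. Each runs 5′ to 3′ from 250 bases before to 50 bases after the RefSeq transcript start on GRCh38.p14, and capitals mark the RBPJ core motif TGGGAA.
HES1: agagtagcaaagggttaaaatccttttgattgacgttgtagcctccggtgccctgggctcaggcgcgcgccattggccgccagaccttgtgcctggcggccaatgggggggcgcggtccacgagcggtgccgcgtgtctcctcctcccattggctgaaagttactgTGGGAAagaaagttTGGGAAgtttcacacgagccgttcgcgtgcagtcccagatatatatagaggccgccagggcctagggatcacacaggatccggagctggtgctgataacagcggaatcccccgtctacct
HES4: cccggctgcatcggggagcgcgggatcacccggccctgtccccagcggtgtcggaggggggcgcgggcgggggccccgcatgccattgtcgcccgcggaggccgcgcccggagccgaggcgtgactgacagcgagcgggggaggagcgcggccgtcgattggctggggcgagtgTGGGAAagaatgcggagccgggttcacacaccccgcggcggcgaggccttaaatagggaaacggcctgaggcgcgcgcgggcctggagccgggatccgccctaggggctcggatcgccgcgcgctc
HES7: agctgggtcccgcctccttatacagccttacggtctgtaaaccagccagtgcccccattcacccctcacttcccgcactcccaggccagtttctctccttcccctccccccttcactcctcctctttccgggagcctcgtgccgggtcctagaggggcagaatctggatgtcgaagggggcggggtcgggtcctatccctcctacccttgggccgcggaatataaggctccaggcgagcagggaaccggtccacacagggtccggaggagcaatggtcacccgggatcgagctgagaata

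The HES1 window holds the core motif at 84 and at 70 bases before the start, both on the strand of the gene, and the first of them is also a match to the extended motif GTGGGAA. HES4 has 1 core motif, at 76 bases, which is extended as well. HES7 has no exact match on either strand. Both strands were searched for these exact letters, and variants of the RBPJ motif were not counted. Of 35116 RefSeq promoter windows of this length 24% hold the core and 6.25% the extended motif, which contains the core. HES1 and HES4 share the 12 bases tgTGGGAAagaa, which occur in 8 of the 35116 windows, those of HES1 and HES4 included. The run was picked as the longest that both windows share, so its rarity is no test. The N-box CACNAG, a motif of HES repressors, is found 4 times in HES1, once in HES7 and not in HES4, and 38.0% of windows hold it. The class C E-box CACGCG, held by 11.4% of windows, is found 2 times in HES1 and in neither HES4 nor HES7. None of these matches overlap another kind of motif apart from the core within its extension. The windows of NOTCH1, NOTCH2, NOTCH3, JAG1 and JAG2 hold no core motif, and those of DLL1 and HEY1 were not used here. Binding was not measured in these samples, and a link between the motifs and the direction of change was not tested.

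HES1 (chromosome 3, 194136145 to 194138732, plus strand), a widely expressed repressor of the family, was at 36.6 and 38.5 CPM in static, 58.5 and 37.8 in low flow and 74.5 and 71.6 in high flow cells. Both high flow libraries lay above the other 4, while 1 low flow library was near the static level and the other well above it. HES1 rose under high flow against static (log2 fold change 0.96, 0.55 to 1.37, adjusted p = 0.0114), and low flow against static, at 0.36, did not pass (-0.05 to 0.77, adjusted p = 0.277). The low flow value rests on single libraries, with 0.01 (adjusted p = 0.976) without low flow replicate 1 and 0.64 (adjusted p = 0.000841) without low flow replicate 2. The call under high flow ended without static replicate 1 (adjusted p = 0.117), static replicate 2 (0.175) or high flow replicate 1 (0.0722). High against low flow gave 0.60 with an adjusted p of 0.330, and 0.0296 in DESeq2. That value was 0.95 (adjusted p = 2.07e-07) without low flow replicate 1 and 0.32 (adjusted p = 0.286) without low flow replicate 2.

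HES7 (chromosome 17, 8120590 to 8124092, minus strand), known as an oscillating repressor of the segmentation clock in mouse embryos, fell under both flow rates. It had 113 and 144 counts in the static, 105 and 125 in the low flow and 92 and 129 in the high flow libraries. Scaled for depth, these are 6.23 and 6.26 CPM in static, 2.30 and 2.60 in low flow and 2.15 and 2.42 in high flow cells. All 4 flow libraries lay below both static libraries, by more than the spread within any condition. The log2 fold changes against static were -1.44 for high flow (-1.86 to -1.03, adjusted p = 0.000282) and -1.35 for low flow (-1.76 to -0.93, adjusted p = 0.00114). The flow rates were close to each other, with a log2 difference of -0.10 for high against low flow (-0.51 to 0.32, adjusted p = 0.913). HES7 was called in both comparisons with static under all 13 alternatives tried, including each fit without 1 library.

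HEY1 (chromosome 8, 79764010 to 79767863, minus strand), a hairy-related repressor, was at 8.82 and 11.0 CPM in static, 8.65 and 6.65 in low flow and 6.86 and 5.88 in high flow cells. Its flow libraries were all below the static ones, and the flow rates overlapped. HEY1 fell under high flow against static (log2 fold change -0.65, -1.01 to -0.28, adjusted p = 0.0204), and was called there in 9 of the 13 alternatives. Low flow against static was -0.38 (-0.74 to -0.02, adjusted p = 0.191). The low flow value was -0.58 (adjusted p = 0.0329) without low flow replicate 1 and -0.20 without either low flow replicate 2 (adjusted p = 0.758) or static replicate 2 (adjusted p = 0.679). The high flow call ended without static replicate 2 (adjusted p = 0.253), high flow replicate 1 (0.103) or high flow replicate 2 (0.169). HES4 (chromosome 1, 998962 to 1000172, minus strand), a target gene that mouse lacks, was at 4.74 and 2.87 CPM in static, 2.63 and 2.37 in low flow and 2.71 and 2.07 in high flow cells. Its libraries did not overlap between flow and static, but the static libraries were far apart, and neither value passed (-0.66 for high flow, adjusted p = 0.0876, and -0.59 for low flow, adjusted p = 0.162). Without static replicate 1 the value for high flow was -0.27 (adjusted p = 0.591).

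**Figure D2:**
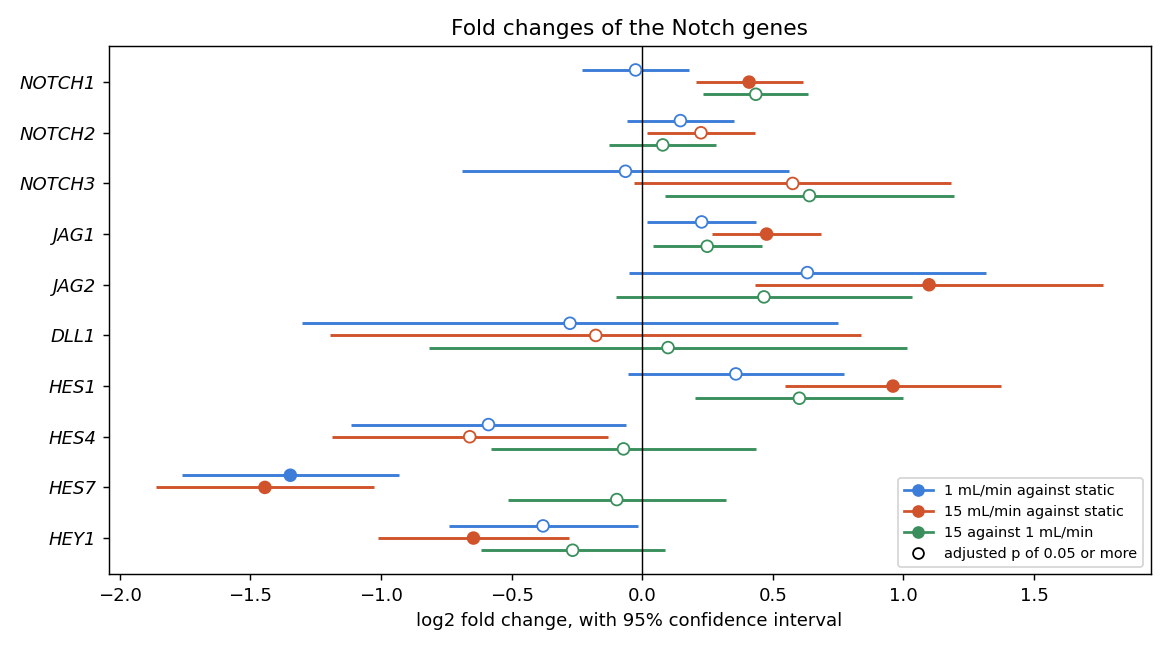
Log2 fold change of each member in the 3 comparisons, with 95% intervals from edgeR as bars; filled points have an adjusted p under 0.05. HES7 is at -1.44 and -1.35 against static under high and low flow and at -0.10 between the flow rates.

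Counted over the 10 members, high flow against static gave 4 higher and 2 lower. Of all 20676 genes 13.9% were called in that comparison, 7.49% higher and 6.43% lower. Low flow against static gave 0 higher and 1 lower in edgeR and in DESeq2, and 6.74% of all genes were called, 3.25% higher and 3.49% lower. At an unadjusted p under 0.05 there were 1 higher and 3 lower members in that comparison, where 23.5% of all genes met it. For high against low flow edgeR called 0 members and DESeq2 2, while over all 20676 genes edgeR called 0.334%, 0.242% higher and 0.0919% lower, and DESeq2 called 116 genes. At an unadjusted p under 0.05 there were 4 higher and 0 lower members, where 9.62% of all genes met it. The median log2 fold change of the members was 0.32 for high flow against static, beside 0.0025 for all tested genes. For low flow against static it was -0.04, beside 0.0074. With the length and GC offsets the medians of the members were 0.10 for high flow and -0.17 for low flow. Without static replicate 1 the low flow median of the members was 0.14. The libraries of high flow did not overlap those of static for 9 members, 6 above and 3 below, where 59.3% of all genes did not overlap, 29.9% above and 29.4% below. Between low flow and static 2 members lay above and 3 below, where 53.4% of all genes did not overlap, 27.1% above and 26.3% below. Between high and low flow 4 members lay above, where 42.7% of all genes did not overlap, 21.2% above and 21.5% below. A test of any difference among the 3 conditions, passed by 10.9% of genes, called HES7, NOTCH1, JAG1 and HES1.

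In the comparisons with high flow, GC-rich genes had higher log2 fold changes. Across 20000 genes Spearman's rho was 0.447 for high against low flow, 0.307 for high flow against static and 0.0588 for low flow against static. JAG2 (64.0% GC), HES7 (63.3%), NOTCH3 (63.1%), NOTCH1 (62.9%) and HES4 (73.9%) are GC-rich beside a median of 48.5% over genes, and JAG1, NOTCH2, HES1 and HEY1 lie between 47.3% and 49.9%. With offsets that remove the trends with length and GC, the calls of NOTCH1 and JAG2 for high flow against static ended, and HES4 was called. JAG2 was at 0.81 (adjusted p = 0.0998) and HES4 at -0.91 (adjusted p = 0.0222). JAG1 (0.40, adjusted p = 0.0125), HES1, HES7 and HEY1 were still called.

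**Figure D3:**
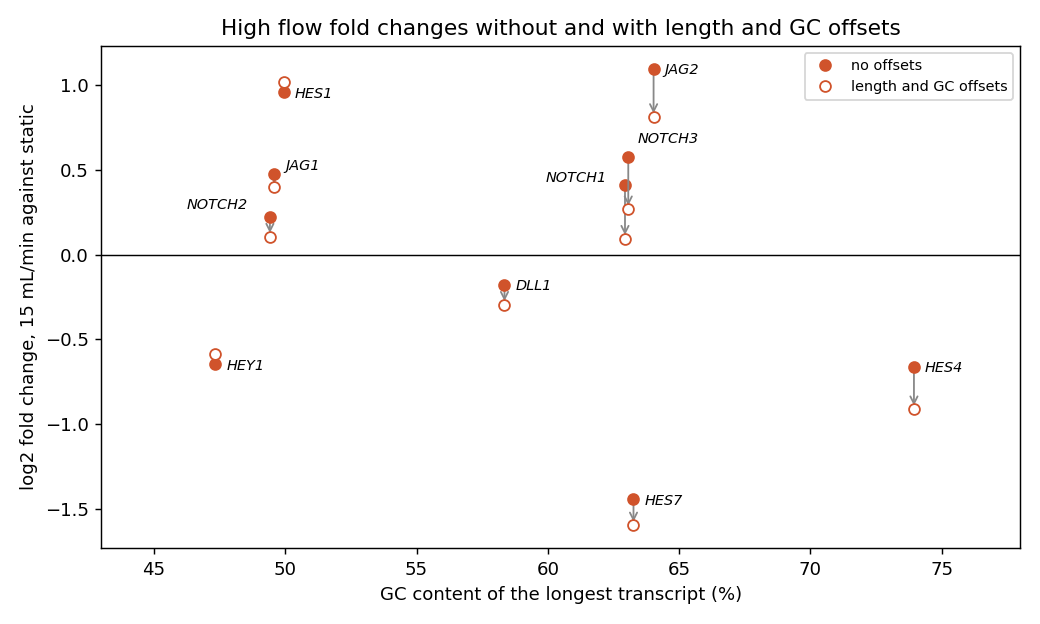
Log2 fold change of each member for high flow against static (vertical axis) by the GC content of its longest transcript in percent (horizontal axis), without offsets (filled points) and with length and GC offsets (open points). NOTCH1 lies at 0.41 without and at 0.09 with the offsets, and HES7 at -1.44 and -1.60.

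The wider pathway was described with 89 listed genes, of which 79 passed the filter on low counts, the members among them. Under high flow 17 of the 79 rose and 2 fell against static, beside 13.9% of all genes called. The median log2 fold change was 0.17 beside 0.0025 for all genes, and 0.09 with the length and GC offsets. Under low flow 5 rose and 2 fell, beside 6.74% of all genes called. The median there was 0.08 beside 0.0074, and 0.03 with the offsets. Between high and low flow 2 rose and 0 fell in edgeR, beside 0.334% of all genes called. DESeq2 gave 5 higher and 0 lower there, of its 116 calls over all genes, and an unadjusted p under 0.05 was met by 15 higher and 1 lower pathway genes and by 9.62% of all genes. DLL3, HES3, HES5, HELT, DTX1, TLE4, DTX3, DLK1, CNTN1 and MFAP5 were left out by the filter, HELT and MFAP5 with 0 counts in all libraries.

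The genes of Notch glycosylation encode enzymes that add sugars to the receptor and change which ligands activate it. Under high flow 3 of 5 were higher, beside 7.49% of all genes called higher. Under low flow 2 of 5 were higher, beside 3.25% of all genes. LFNG, the Lunatic Fringe glycosyltransferase, was at 17.0 and 12.4 CPM in static, 27.9 and 33.6 in low flow and 29.5 and 28.4 in high flow cells. All flow libraries were well above the static ones and the flow rates overlapped. LFNG rose by a log2 fold change of 0.99 under high flow (adjusted p = 0.000456) and 1.07 under low flow (adjusted p = 0.000578), and was called in each of the 6 fits without 1 library in both comparisons. The Fringe genes MFNG (0.88, adjusted p = 0.00905) and RFNG (0.48, adjusted p = 0.0180) rose under high flow, and POGLUT1, which adds O-linked glucose, rose under low flow (0.40, adjusted p = 0.0434).

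In the HES and HEY family, with 8 of 11 genes tested, HEYL was the one further gene that passed. HEYL was at 3.18 and 2.87 CPM under high flow, against 1.38 and 1.26 CPM in static cells (log2 fold change 1.20, adjusted p = 0.00531). Of 8 tested genes listed as other Notch targets, which are also under many other controls, SOX9, BMP2 and EPHB4 rose under high flow, SOX9 and BMP2 rose under low flow, and MYC fell under low flow. SOX9, a transcription factor of cartilage and stem-like cells, was at 92.1 and 114 CPM in static, 138 and 149 in low flow and 243 and 214 in high flow cells. The conditions did not overlap, and SOX9 rose in all 3 comparisons, by 1.15 for high flow against static (adjusted p = 8.17e-06), 0.67 for high against low flow (adjusted p = 0.0075) and 0.47 for low flow against static (adjusted p = 0.0181). MYC was at 52.0 and 50.8 CPM in static, 42.6 and 35.3 in low flow and 68.7 and 59.9 in high flow cells. MYC fell under low flow against static (-0.40, adjusted p = 0.0383) and rose in high against low flow (0.72, adjusted p = 0.00427), while high flow against static was 0.32 (adjusted p = 0.0587).

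Calls among the genes of the machinery around the receptor stand beside 7.49% of all genes called higher under high flow and 3.25% under low flow. Of 7 ligand endocytosis genes NEURL1B, a ubiquitin ligase (0.77, adjusted p = 0.00796), and EPN1, an endocytic adaptor (0.29, adjusted p = 0.0498), rose under high flow. Of 9 receptor cleavage genes FURIN, which cuts the receptor on its way to the cell surface, rose under high flow (0.45, adjusted p = 0.0208). Among the corepressor genes the histone demethylase gene KDM5A (0.39, adjusted p = 0.0199) and TLE3, of the Groucho family (0.32, adjusted p = 0.0412), rose under high flow, and KDM5A rose under low flow (0.43, adjusted p = 0.0220). Among the 21 tested genes of the nuclear complex, receptor turnover and non-canonical ligands edgeR called 0 in all comparisons. DESeq2 called 1 of them for high flow against static and 1 for low flow against static, and an unadjusted p under 0.05 was met by 7 (33.3%) and 6 (28.6%), near the shares of all genes, 29.4% and 23.5%. For high against low flow DESeq2 called 0 and 3 met the unadjusted p, or 14.3% beside 9.62% of all genes. Of the 19 pathway calls under high flow, 10 were still called with the length and GC offsets, and among those that ended were EPHB4, EPN1, FURIN, RFNG, NEURL1B and TLE3, along with NOTCH1 and JAG2. HES7, LFNG and SOX9 were the 3 of 19 called in every fit without 1 library, and HES7 and LFNG the 2 of 7 under low flow. Of the 19, 15 were still called without static replicate 1, 5 without static replicate 2, 4 without high flow replicate 1 and 9 without high flow replicate 2. Of the 7, 2 were still called without static replicate 1 or low flow replicate 2, and 3 without static replicate 2 or either high flow replicate. The call of SOX9 between high and low flow ended without either high flow replicate, and that of MYC without high flow replicate 1.

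**Figure D4:**
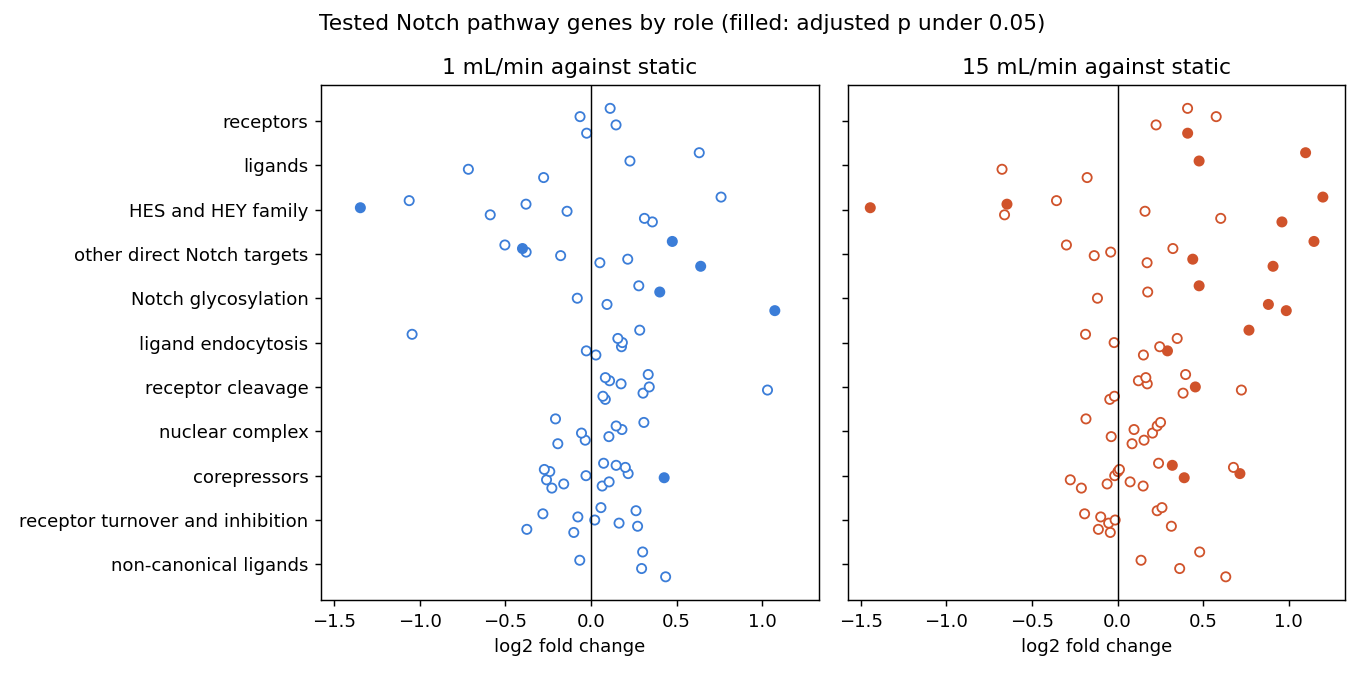
Log2 fold change of the 79 tested pathway genes, 1 point per gene in rows by role, for low flow against static (left) and high flow against static (right); filled points have an adjusted p under 0.05. There are 7 filled points on the left and 19 on the right, and HES7 is the lowest filled point in both panels, at -1.35 and -1.44.

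The 5 genes whose log2 CPM followed that of HES7 most closely over the 6 libraries, among 11672 candidates (mean CPM of 4 or more), were HHEX, EEF1B2, RBM8A, UBE2E2 and OSER1, with Pearson's r of 0.990 to 0.997. Libraries of a condition share its lane, the static libraries are the shallowest, and the likeness is given as a description. HHEX averaged 12.9 CPM in static, 8.41 in low flow and 7.84 in high flow cells. In the same order EEF1B2 averaged 443, 340 and 339 CPM, and RBM8A 206, 179 and 180. UBE2E2 averaged 25.1, 20.9 and 20.8 CPM, and OSER1 69.1, 59.0 and 58.2. Pearson's r reflects the shape of the pattern and not the size of the change.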

How the data were processed

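The authors deposited raw read counts per gene, 1 column per library, from poly(A) RNA made into libraries with a KAPA stranded kit per the labels' protocols. Per the submitters' processing notes, STAR and featureCounts were used with hg38. Settings and the annotation are not given in the sources used here.

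Counts of all 6 libraries were fitted in R 4.3.3 with edgeR 4.0.16 (quasi-likelihood test, TMM scaling, robust estimates, 3 residual degrees of freedom, expression filter with a minimum count of 10). P-values were two-sided and adjusted by the Benjamini-Hochberg method over 20676 genes in each of 3 comparisons. CPM values were computed here with the TMM factors. Exact permutation of 2 against 2 libraries cannot go below p = 0.3333, so no such test was made. Alternatives were RLE scaling, no filter, DESeq2 1.42.0, only the 4 libraries compared, the replicate number as a block, length and GC offsets, and leaving out each library. The scripts were checked on simulated counts.

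Gene positions, lengths and GC contents came from GENCODE 29, in which 56447 of 60591 symbols matched 1 gene, and promoter windows from RefSeq for 8 of the 10 members. Libraries of a condition were no copies, with a chi-square per degree of freedom of 15.6 in static, 29.8 in low flow and 12.1 in high flow. The genes, lists and alternatives were chosen with earlier results of these data known. Named were the 10 genes, the other listed pathway genes that passed in a comparison, apart from a result not reported here, and the 5 genes with a pattern most like that of the member with the smallest p. Shared exons were sought for the members only, so other genes may share reads.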

Additional observations from a re-analysis of the deposited data

How the results depend on the processing

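Of 390 log2 fold changes of the members under the alternatives, 343 kept their direction and side of the threshold. Of the others 13 turned direction, none of them called, and without 1 library the values ran as follows. In low flow against static NOTCH1 ran from -0.10 to 0.050, and turned without static replicate 2 (0.0057), low flow replicate 1 (0.050) and with no filter (0.0031). NOTCH3 ran from -0.41 to 0.23 and DLL1 from -0.71 to 0.19, turning when either static replicate 1 (0.23 and 0.19) or low flow replicate 1 (0.21 and 0.053) was left out. DLL1 in high flow against static ran from -0.57 to 0.29, the last without static replicate 1. In high against low flow DLL1 ran from -0.23, without low flow replicate 1, to 0.54, and was at -0.010 with the offsets and -0.0045 with the replicate block and offsets. HES4 there ran from -0.27 to 0.11, and turned when low flow replicate 1 (0.0055) or high flow replicate 2 (0.11) was left out.

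The number of genes called in low flow against static, 1394, was 2260 with no filter, 907 with the replicate block, 604 with 4 libraries and 95 to 3111 without 1 library. For high flow against static, 2878, it was 1447 with the replicate block and offsets and 300 to 4004 without 1 library, and the offsets gave 977 higher and 1112 lower. For high against low flow, 69, it was 241 with no filter, 39 with the offsets, 36 with the block and offsets and with 4 libraries, 116 in DESeq2 and 4 to 294 without 1 library. Pathway calls in low flow against static, 7, were 13 with no filter, 12 with the offsets, 3 with 4 libraries and 3 to 19 without 1 library. In high flow against static, 19, they were 12 with the offsets, 10 with the block and offsets and 4 to 27 without 1 library. In high against low flow, 2, they were 6 with no filter, 5 in DESeq2 and 0 to 5 without 1 library. The cause was not tested.

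Same-numbered libraries showed no strong shared deviation over genes (r from -0.14 to 0.14). These correlations cannot show whether the samples were paired by number. With the replicate block HES7 was called in both comparisons with static, and the adjusted p of JAG2 in high flow against static was 0.0537. In the opposite direction, HES4 in high flow against static was called with the offsets (adjusted p = 0.0222), the block and offsets (0.0268), 4 libraries (0.0406) and without either low flow library (0.0364 and 0.0366). HES1 in low flow against static was called with no filter (0.0122), as were NOTCH1 (0.00725) and HES1 (8.12e-06) in high against low flow. JAG2 (0.0380) and HEY1 (0.0329) in low flow against static were called without low flow replicate 1. DLL1, with 9 to 27 counts per library, had the widest intervals of the members.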
